A study of Mus musculus with 12 samples.

Results

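Among 184957 nuclei of the mouse hippocampal dissection with 500 to 10000 detected genes, 356 nuclei carried the transcripts used to mark layer 6 corticothalamic neurons. These nuclei were chosen by their own raw counts of unique molecular identifiers (UMIs, each standing for 1 captured RNA molecule). A member had at least 1 UMI of Slc17a7, at least 3 of Hs3st4, at least 1 of Foxp2 and at least 1 of Syt6 or Tle4. It had no UMI of Slc17a6, Prox1, Gad1 or Gad2 and fewer than 2 of Mobp. Slc17a7 encodes the vesicular glutamate transporter of cortical and hippocampal excitatory neurons, Slc17a6 that of most thalamic neurons, Prox1 marks dentate granule cells, Gad1 and Gad2 mark GABA neurons and Mobp marks oligodendrocytes. Because the rule read these counts, the levels of these genes in the members, and any comparison of levels between members and other nuclei, are descriptions without a test. What was tested is the effect of genotype and age, within the members and against the effect of genotype in other nuclei.

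The nuclei came from the left hippocampus of female mice of 6 or 12 months, sorted by flow cytometry and captured with droplet 3′ chemistry. The 3xTg-AD mice carry human APP with the Swedish mutation and human MAPT with a tau mutation linked to frontotemporal dementia, both as transgenes driven by the neuronal Thy1 promoter, among their alleles. The controls were their wild-type (WT) littermates, and no treatment is named for either genotype. There were 3 libraries for each genotype at each age, 12 in all, and the study's methods give 1 mouse for each. The libraries keep here the numbers of their labels, 1 to 12.

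Corticothalamic neurons of layer 6 are excitatory cells of the deepest cortical layers that send axons to the thalamus, where they adjust the sensory signals relayed to the cortex. Tbr1 and Fezf2 are transcription factors that set the identity of deep-layer neurons. Foxp2 is a forkhead factor, Tle4 a Groucho-type co-repressor, Syt6 a synaptotagmin and Hs3st4 an enzyme that adds sulfate to heparan sulfate chains. The hippocampus proper has no layer 6. The neighbouring subiculum, entorhinal cortex and neocortex have deep layers with related cells.

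Members were few and unevenly spread. The 6-month WT libraries held 5 (library 3), 38 (library 7) and 49 (library 11), and the 6-month 3xTg-AD libraries held 63 (library 1), 12 (library 5) and 25 (library 9). At 12 months the WT libraries held 29 (library 4), 11 (library 8) and 8 (library 12), and the 3xTg-AD libraries held 47 (library 2), 34 (library 6) and 35 (library 10). Members had a median of 10386 UMIs (2725 to 35697). Their median by library ran from 7439 to 18007, against 6654 to 10440 in the other excitatory nuclei, which are the 8799 nuclei with Slc17a7 and without Slc17a6, Gad1, Gad2 or 2 UMIs of Mobp that were not members. Of all members, 29 (8.15%) were called doublets. Each pair of libraries shared between 29 and 105 barcodes, and 14 member barcodes were also found in another library, but no barcode was a member in more than 1 library.

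Most members were far from the Hs3st4 threshold. Their median Hs3st4 count was 20 UMIs, with a highest count of 198. Of the nuclei that met every other condition, 19 had exactly 3 Hs3st4 UMIs and 17 had 4, while just outside the rule 23 had 2, 34 had 1 and 241 had none. Foxp2 was the thinner condition, with a median of 2 UMIs and 131 members (36.8%) holding 1.

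Further markers of layer 6 corticothalamic neurons were each detected in a portion of the members. No cluster of members is given that name below. Garnl3, Zfpm2 and Sulf1, markers that the rule did not read, were detected in 82.6%, 81.7% and 42.7% of members, against 40.7%, 67.0% and 11.2% of the other excitatory nuclei. Fezf2 was detected in 26.4% of members and 5.42% of the other excitatory nuclei, and Tbr1 in 24.2% and 9.61%. Ntsr1, the neurotensin receptor gene widely used to reach layer 6 corticothalamic cells, was present in 6.18% of members and 2.32% of the other excitatory nuclei, and Rprm and Gpr139 in 5.62% and 4.21% of members. In oligodendrocyte-type nuclei, which should lack these genes and had shallower libraries (median 2455 to 3663 UMIs), Ntsr1 was detected in 0.26%, Fezf2 in 0.04% and Tbr1 in 0.17%, and after thinning every nucleus to 2000 UMIs the members still had Fezf2 in 8.43% and Tbr1 in 5.90%, above that background. Garnl3 (17.7%) and Zfpm2 (23.9%) were frequent in oligodendrocyte-type nuclei too.

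At least 3 of the 11 further corticothalamic markers were detected in 241 members (67.7%), and none in 10. Of the other excitatory nuclei 18.6% had at least 3 of them, and of the oligodendrocyte-type nuclei 0.816%. After thinning to 2000 UMIs the shares were 24.7% of members and 2.29% of the other excitatory nuclei. Tcf7l2, a factor of thalamic neurons, was detected in 53 members (14.9%), and together with Lef1 in 26. Every one of these shares is a count of UMIs at a given depth. After each nucleus was thinned to 2000 UMIs, Hs3st4 remained detectable in 90.2% of members, Foxp2 in 48.9%, Tle4 in 51.1%, Syt6 in 9.55% and Ntsr1 in 1.40%.

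**Figure D1:**
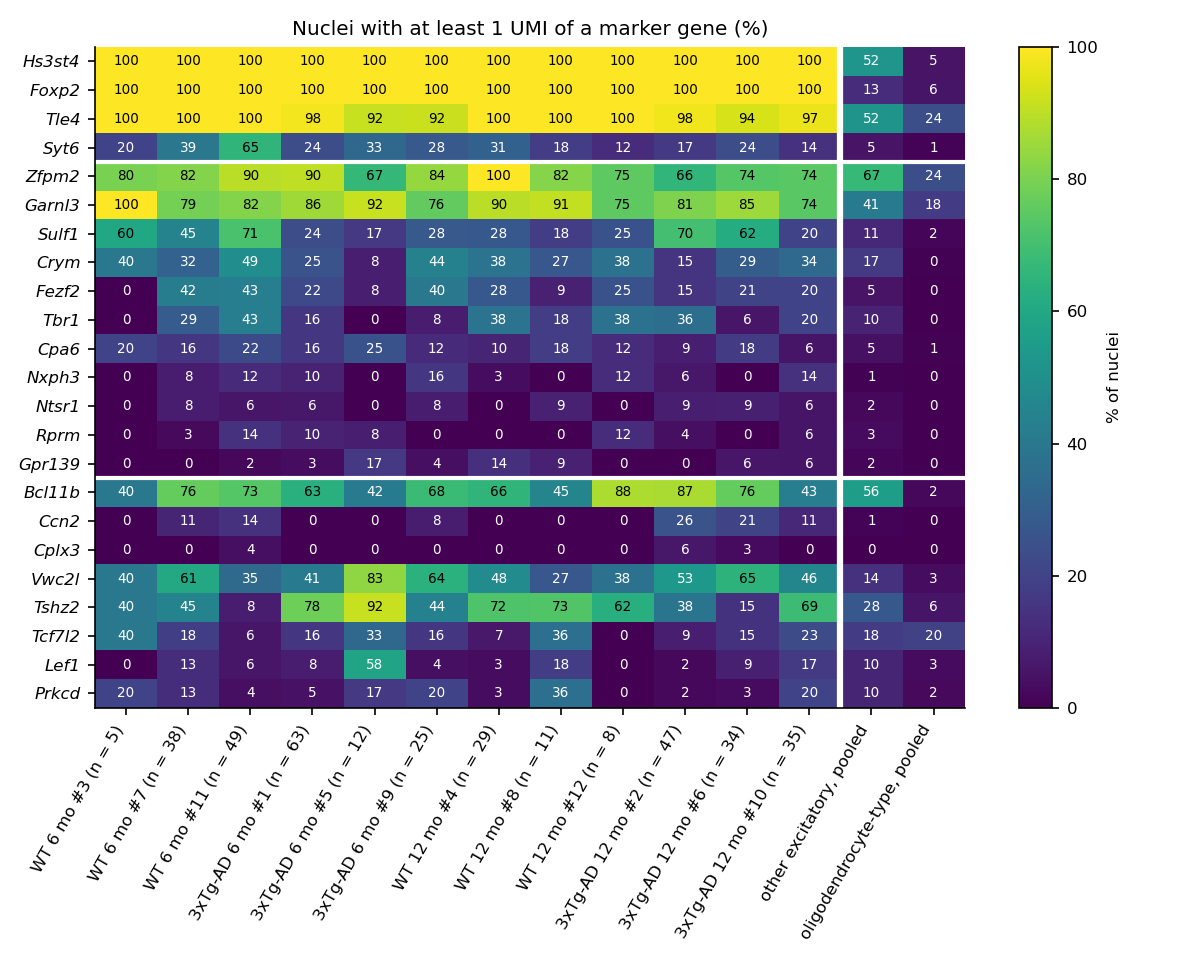
Percent of nuclei with at least 1 UMI of each marker gene (rows) in the members of each library and, in the last 2 columns, in the pooled other excitatory and oligodendrocyte-type nuclei. The rows of Hs3st4 and Foxp2 are fixed at 100 by the rule, whereas Syt6 ran from 12.5% to 65.3% and Tshz2 from 8.2% to 91.7% between libraries.

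Marker detection also differed strongly between libraries. Tbr1 and Fezf2 each ran from 0 to 42.9% of members. Tshz2, which marks near-projecting cells of layer 5 among others, ran from 8.2% to 91.7%. Ccn2, a secreted matrix protein that marks layer 6b, ran from 0 to 25.5% and was found in 10.1% of all members. 6-month WT library 3, with 5 members, stood apart in the levels of the rule's own genes: Hs3st4 reached 659 CPM there (UMIs of the gene per 1000000 UMIs of the members), against 1330 to 2909 CPM in the other libraries, and Foxp2 reached 70.6 CPM against 146 to 542 CPM.

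Syt6 and Tle4, the 2 alternatives of the rule, did not select the same nuclei. Both were detected in 99 members (27.8%), Tle4 alone in 249 (69.9%) and Syt6 alone in 8. The members with both genes had more frequent Tbr1 (35.4%), Fezf2 (38.4%), Crym (47.5%) and Sulf1 (60.6%) than those with Tle4 alone (20.5%, 22.1%, 25.7% and 36.5%). Tshz2 went the other way, at 28.3% and 57.4%. The median depths were 10972 and 10060 UMIs, and Ntsr1 was detected in 8.08% and 5.62%. Of the 99 members with both genes, 32 came from 6-month WT library 11, which held 17 with Tle4 alone, so these percentages mix the choice of gene with the library.

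The members were clustered among themselves on 1500 variable genes, and 9 clusters resulted. Each cluster is described by its leading genes, which were found on the same nuclei and carry no test. Cluster 3 (58 nuclei) was led by Spag16, Alkal1 and Gm6209, with the layer 6 marker Sulf1 among its first 10 genes. Of the 9 clusters it had the highest detection of Syt6 (60.3%), Sulf1 (91.4%), Crym (60.3%), Cpa6 (37.9%) and Ntsr1 (17.2%), with Fezf2 in 48.3%. Cluster 2 (58 nuclei), led by Col5a1 and Adgrd1, had Garnl3 among its first 10 genes, with Garnl3 in 98.3%, Syt6 in 58.6% and Tbr1 in 46.6%. Syt6 was read by the rule and is no independent mark. Of the markers it did not read, Gpr139 was detected in none of cluster 3 and in 1.72% of cluster 2, Rprm in 5.17% and 10.3%, and Ntsr1 in 5.17% of cluster 2, below the 6.18% over all members. Other unread markers were as frequent elsewhere, with Fezf2 in 55.9% of cluster 4, Sulf1 in 87.9% and Tbr1 in 39.4% of cluster 5 and Garnl3 in 90.9% to 96.9% of clusters 4 to 6. Clusters 2 and 3 are therefore described by their genes and left without a cell type name.

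Cluster 5 (33 nuclei) was layer 6b-like. Ccn2 was its leading gene and was present in 69.7%, with Moxd1 in 21.2%, Cplx3 in 12.1% and Nxph4 in 6.06%. Trh, the fifth gene of the layer 6b list, had no UMI there, and Nxph4 was more frequent in cluster 9 (9.09%). The corticothalamic markers Sulf1, Tbr1 and Garnl3 were frequent in cluster 5 too, in the shares just given. Cluster 8 (21 nuclei) was thalamic-like despite the absence of Slc17a6 that the rule demands, with Tcf7l2 in all 21 nuclei, Lef1 in 95.2% and Prkcd in 71.4%, and with all 3 among its first 10 genes. Of the rest of the thalamic list, Tac2 and Gpr151 had no UMI in cluster 8, and Rora was in at least 87.9% of every cluster. Tbr1 and Fezf2 were each detected in 4.76% of cluster 8. Cux2 and Rorb, from a list drawn up for other cortical neurons, were each detected in 81.0%, and whether they mark cortex here was not tested. Doublet calls took 5 of its 21 nuclei, against 8.15% of all members.

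The remaining clusters also stay unnamed. Cluster 1, the largest with 79 nuclei, was led by Ankfn1, Pdzrn3, Pbx3 and Rarb, the last 2 being a homeodomain factor and a retinoic acid receptor. Cluster 4 (34 nuclei, 7 of them doublet calls) was led by Kcnh8, Sntb1 and Lcp1, and none of its nuclei had Syt6. All of them had Tshz2 and Vwc2l, 2 of the 3 genes of the near-projecting list, and none had the third, Slc17a8. Tshz2 was also in all nuclei of cluster 6 and Vwc2l in 93.9% of cluster 5. Cluster 6 (32 nuclei, in 5 libraries) was led by Cobll1, Mctp2 and Nr4a2, an orphan nuclear receptor. Cluster 7 (30 nuclei) was led by 4921539H07Rik and Ccbe1, and cluster 9 (11 nuclei) by Col27a1 and Fam107b.

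The clusters were not shared evenly between the libraries. Together the layer 6b-like cluster 5 and cluster 3 held 34.2% and 59.2% of the members of 6-month WT libraries 7 and 11 but none of the 5 in library 3. In the 6-month 3xTg-AD libraries they held none in libraries 1 and 5 and 28% in library 9. At 12 months they held 3.45% in WT library 4 and none in WT libraries 8 and 12, against 44.7%, 44.1% and 14.3% in 3xTg-AD libraries 2, 6 and 10. These makeups bear on every expression comparison below, because a change in the mix of clusters and a change within a cluster cannot be told apart in counts summed over members.

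**Figure D2:**
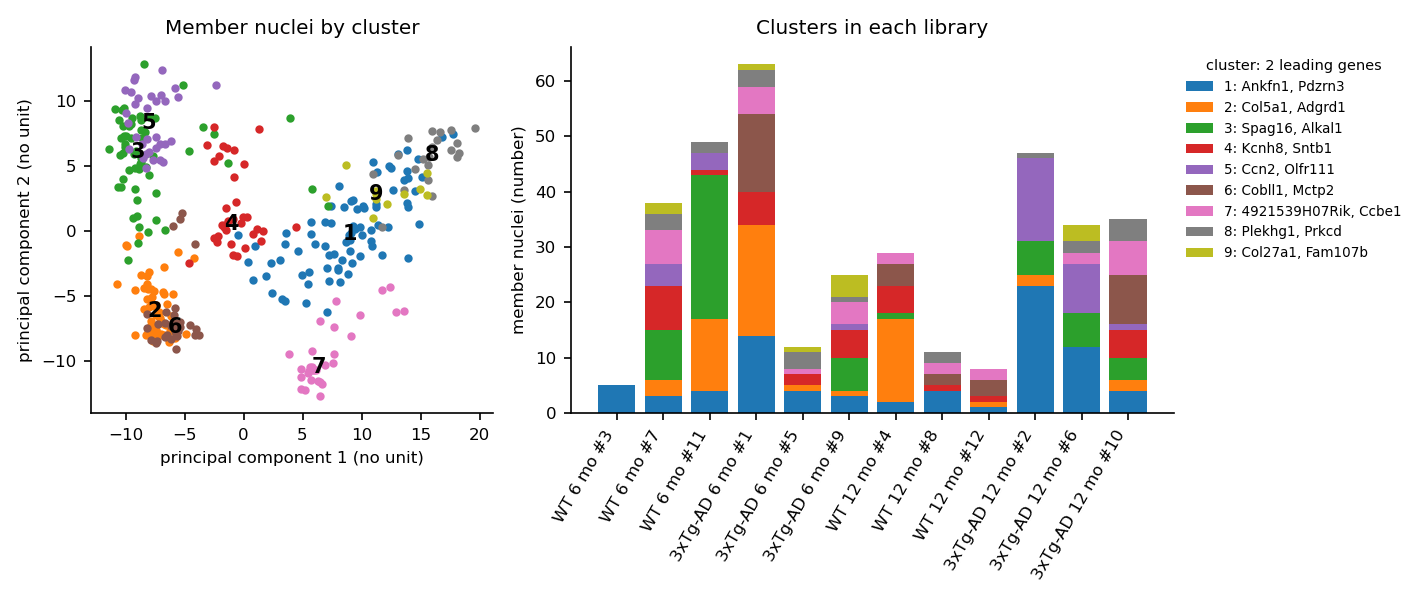
Left, the 356 members on the first 2 principal components of their expression, coloured and numbered by cluster. Right, the number of members of each cluster in each library, with the 2 leading genes of each cluster in the key: cluster 3 has 26 of its 58 nuclei in 6-month WT library 11, and cluster 5 has 15 of its 33 in 12-month 3xTg-AD library 2.

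Levels in the members were set against those in the other excitatory nuclei of the same libraries as the median over 12 libraries of the log2 ratio of CPM, after 5 CPM were added to each value. Rai14, an actin-associated ankyrin-repeat protein, led with 3.19, a level of 163 CPM in members against 10.3 CPM, and was higher in 12 of 12 libraries. The rule gene Foxp2 followed at 2.72. Cntnap4 (2.63) and Cdh18 (2.31) are adhesion proteins of the contactin-associated and cadherin families, Col12a1 (2.35) is a collagen, and Dlc1 (2.08) and Arhgap25 (2.25) are GTPase-activating proteins of small GTPases. Sema5b (1.80), a semaphorin, Sdk2 (1.79), a synaptic adhesion protein, Sgcd (1.67), a sarcoglycan, Vwc2l (1.97), of the near-projecting list, and Etl4 (1.65) also ranked among the first 20. Of the 11 corticothalamic markers outside the rule 10 were above the other excitatory nuclei, 4 of them by over 1 log2 unit. Of the 3 genes of the near-projecting list 2 were above, 1 by over 1 unit. Over 26385 genes with a UMI, 5618 were above, 106 by over 1 unit. These include sparse genes that can have no UMI in the few members of a library, so this is a low bar for expressed genes.

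Of 21 genes in the list of heparan sulfate enzymes, 5 exceeded the other excitatory nuclei by over 1 log2 unit: the 3-O-sulfotransferases Hs3st2 (2.71), Hs3st4 (1.92, a rule gene) and Hs3st5 (1.62) and the 6-O-endosulfatases Sulf1 (2.20) and Sulf2 (1.33). The N-deacetylase/N-sulfotransferase Ndst4 (-1.69) and the sulfotransferase Hs3st1 (-1.28) were lower by over 1 unit. The list's median was -0.01, next to -0.04 over 26385 genes with a UMI, of which 106 were above and 252 below by over 1 unit.

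Of the 26385 genes with a UMI 5618 were above the other excitatory nuclei, and the receptor lists are set next to this. The 26385 include sparse genes, which can have no UMI in the few members and a ratio just below 0. A larger share above in a list of expressed genes is therefore not read as enrichment. Of 26 neuromodulator receptor genes 12 were above, 3 of them by over 1 log2 unit, and 2 were lower by that much (list median -0.06). Of 9 AMPA and kainate receptor genes 4 were above, 1 by over 1 unit (median -0.13), and of 8 metabotropic glutamate receptor genes 3 were above, 2 by over 1 unit (median -0.05). Of 12 GABA-A subunits 3 were above, 1 by over 1 unit, and 1 was lower by that much (median -0.19). The orexin receptor gene Hcrtr2 (1.72), the kainate receptor subunit Grik3 (1.64), the glycine receptor subunit Glra2 (1.79), the metabotropic glutamate receptors Grm3 (1.51) and Grm8 (1.38), the serotonin receptor Htr1f (1.09), the nicotinic subunit Chrna5 (1.27) and the GABA-A subunit Gabrg3 (1.05) were higher in members. Grm8 and Hcrtr2 were higher in 12 of 12 libraries, and Chrna5 in 8 of 12 at a median of 8.59 CPM. Gabra2 (-1.09), the serotonin receptor Htr4 (-1.06), the neuropeptide Y receptor Npy1r (-1.33) and the T-type calcium channel Cacna1h (-1.58) were lower. Of 29 axon guidance genes, Epha4, Epha7, Slit3, Ntng1 and Ntng2 were lower by over 1 unit and none was higher by that much. Genes lowest in members included Glis3 (-4.42), Dock10 (-2.76), St18 (-2.74) and Maml2 (-2.64), of which Dock10 and Maml2 are in the dentate list whose Prox1 the rule excluded. Summed astrocyte and oligodendrocyte markers were lower in members than in the other excitatory nuclei: the 6 astrocyte markers summed to 43.7 to 277 CPM against 355 to 671 CPM, and the 6 oligodendrocyte markers to 27.7 to 239 CPM against 98.7 to 376 CPM. Of these markers 2 and 1 were lower by over 1 log2 unit. Slc4a4 alone was at 102 against 425 CPM, next to medians of 129 and 491 CPM for the astrocyte sum. St18 was at 7.92 against 115 CPM, next to 88.1 and 239 CPM for the oligodendrocyte sum. The 6 microglia markers were close, with a median over libraries of 31.3 CPM in members (0 to 82.8) and 31.5 CPM in the other excitatory nuclei (20.2 to 58.1).

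Whether the number of these nuclei differed with genotype or age was asked from their share of each library. As a percent of all nuclei, the shares in 6-month WT mice were 0.0412, 0.238 and 0.310 in libraries 3, 7 and 11, a mean of 0.196 ± 0.139 (SD, n = 3). In 6-month 3xTg-AD mice they were 0.445, 0.0758 and 0.140 in libraries 1, 5 and 9, a mean of 0.220 ± 0.197 (SD, n = 3). The 2 groups overlapped throughout. The 95% Wilson interval of library 3 ran from 0.0176% to 0.0965% and that of library 1 from 0.348% to 0.569%, which cover counting error only, so libraries of 1 age differed by far more than counting error.

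At 12 months the shares in WT mice were 0.161, 0.0831 and 0.0705 in libraries 4, 8 and 12, a mean of 0.105 ± 0.0489 (SD, n = 3). In 12-month 3xTg-AD mice they were 0.312, 0.216 and 0.177 in libraries 2, 6 and 10, a mean of 0.235 ± 0.0696 (SD, n = 3). Every 12-month 3xTg-AD library was thus above every WT library, by 0.130 percentage points on average. The two-sided exact permutation test gave p = 0.1, the smallest that 3 libraries against 3 allow, and an adjusted p of 0.5 over 10 share tests. This separation depended on how members were counted. With both Syt6 and Tle4 required, WT library 4 (0.0499%) was above every 3xTg-AD library (0.0202% to 0.0465%) and the difference of the means was 0.0103 points. After thinning to 2000 UMIs, WT library 4 (0.0435%) lay above 3xTg-AD libraries 2 and 6 (0.00801% and 0.0152%) and the difference was 0.0088 points. These 2 ways of counting left 1 to 12 nuclei per library at 12 months, and fewer nuclei by themselves make a difference in points smaller. Among members with Tbr1, Fezf2 or a further cortical marker and no Tcf7l2 the difference was 0.0693 points, and without doublets it was 0.124 points. In both of these WT library 4 (0.0998% and 0.163%) was above 3xTg-AD library 10 (0.0757% and 0.160%).

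Taking the excitatory nuclei as the denominator gave the same order at 12 months. The shares were 3.09, 1.55 and 0.903% in WT libraries 4, 8 and 12, a mean of 1.85 ± 1.12 (SD, n = 3). In 3xTg-AD libraries 2, 6 and 10 they were 4.54, 4.43 and 4.44%, a mean of 4.47 ± 0.0591 (SD, n = 3). The 3xTg-AD libraries were again all higher, by 2.62 points, and the exact permutation test gave 0.1 again (adjusted p = 0.5). The groups overlapped here too with both Syt6 and Tle4 (a difference of 0.204 points), after thinning (0.532 points) and with a cortical factor and no Tcf7l2 (1.32 points). At 6 months the shares were 2.02, 3.83 and 10.1% in WT and 7.12, 1.69 and 3.53% in 3xTg-AD libraries, and the groups overlapped. The remaining 8 tests, which were those at 6 months, over both ages, of age and of the genotype by age interaction, had adjusted p from 0.75 to 0.9.

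**Figure D3:**
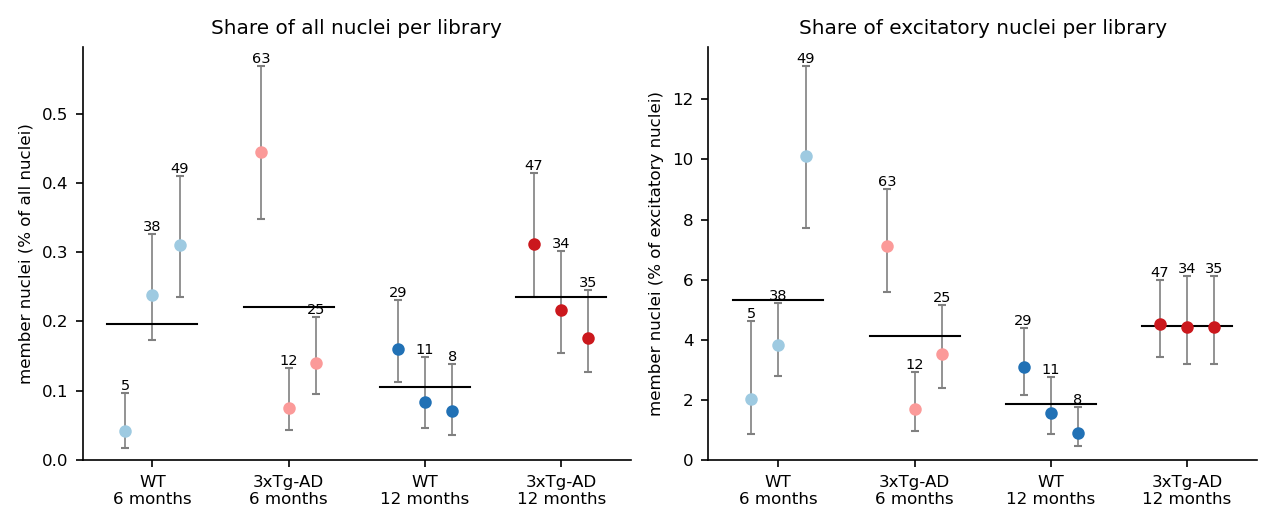
Members as a percent of all nuclei (left) and of excitatory nuclei (right) in each library, with 95% Wilson intervals as bars, the number of members above each point and the group mean as a line. At 12 months the 3 3xTg-AD libraries (0.177% to 0.312% of all nuclei) lie above the 3 WT libraries (0.0705% to 0.161%), while at 6 months the genotypes overlap.

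Of 3 relations of the member share with other kinds of nuclei, the 1 with Rorb-type nuclei passed the threshold. Rorb-type nuclei were excitatory nuclei with at least 3 UMIs of Rorb, a marker of cortical layer 4, fewer than 3 of Hs3st4 and none of Prox1, and with a further cortical marker. They made up 0 to 0.120% of a library, and the member share rose with them across the 12 libraries (Pearson r = 0.83, permutation p = 0.00074, adjusted p = 0.00222, Spearman correlation 0.87, permutation p = 0.00042, adjusted p = 0.00126 over 3 relations). Without 3xTg-AD libraries 2 and 5, the farthest from the median on the Rorb-type axis, r was 0.86 (permutation p = 0.00124, n = 10). The deviations from the 4 group means had r = 0.82. Counted as shares of excitatory nuclei, r was 0.87 (permutation p = 0.0004), and 0.72 (permutation p = 0.0177, n = 10) without WT library 11 and 3xTg-AD library 5. Both shares have the nuclei of the library as denominator, and there were 0 to 18 Rorb-type nuclei in each library. Rorb-type nuclei met the same conditions as members on Slc17a7, Slc17a6, Prox1, Gad1, Gad2 and Mobp, and their share was not computed after thinning. Doublet calls took 23 of the 91 Rorb-type nuclei (25.3%), against 6.79% of all nuclei, and 7.69% to 100% of them in the 10 libraries with any. Without doublet calls in either share, r was 0.86 (permutation p = 0.00031, n = 12), an alternative added after seeing the data, and 0.81 (permutation p = 0.0056, n = 10) also without 3xTg-AD libraries 1 and 2.

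Shares of nuclei from other regions gave relations that did not pass the threshold. Dentate-type nuclei (Prox1 of at least 2 UMIs) had r = -0.25 with the member share (permutation p = 0.431) and a Spearman correlation of -0.33 (p = 0.298 by permutation). As shares of excitatory nuclei these were -0.35 (permutation p = 0.258) and -0.54 (p = 0.0746 by permutation). Striatal-type nuclei, GABA nuclei with Rgs9 and Ppp1r1b or Pde10a, had r = 0.42 (permutation p = 0.175) and a Spearman correlation of 0.46 (p = 0.132 by permutation). At 12 months the 3xTg-AD libraries held more striatal-type nuclei than the WT libraries, 1869, 1890 and 556 in 3xTg-AD libraries 2, 6 and 10 against 147, 217 and 192 in WT libraries 4, 8 and 12. Dentate-type nuclei went the other way, with 0.0929, 0.159 and 0.485% of all nuclei in those 3xTg-AD libraries against 0.948, 0.695 and 1.21% in the WT libraries, and the genotypes did not overlap for either type. The part of tissue makeup in the 12-month difference in member share was not tested.

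**Figure D4:**
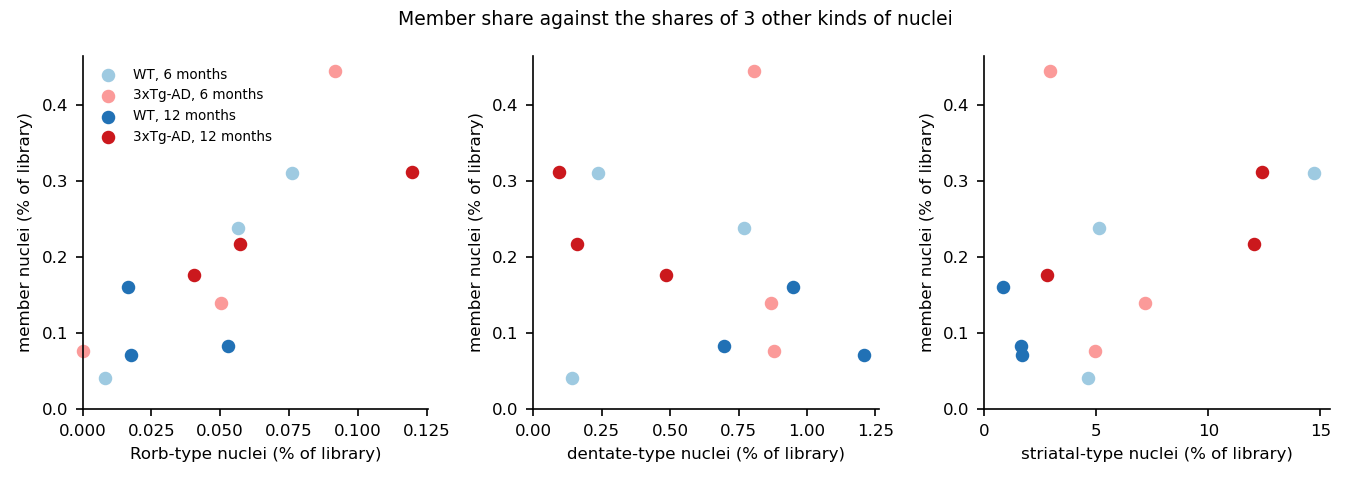
Share of members (vertical axis, percent of all nuclei of the library) against the shares of Rorb-type, dentate-type and striatal-type nuclei (horizontal axes, percent of the library), 1 point for each of 12 libraries coloured by group. The points rise together for Rorb-type nuclei (r = 0.83) and show r = -0.25 and r = 0.42 for the other 2.

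Expression in the members was compared on counts summed over the members of each library, with edgeR's quasi-likelihood test and Benjamini-Hochberg adjustment over all genes tested. Genes counted as called when the adjusted p fell below 0.05 and the log2 fold change (log2FC) exceeded 0.2 in either direction. Libraries entered with at least 10 members, so 6-month WT library 3 and 12-month WT library 12 were left out of these fits and each age had 3 3xTg-AD against 2 WT libraries. Each p below measures the spread between these mice.

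At 6 months 1 of 7229 genes tested was called, 0.0138% of them. It was AC149090.1 (ENSMUSG00000095041), a gene known by its clone name only. Its level was 196, 233 and 142 CPM in 3xTg-AD libraries 1, 5 and 9, against 765 and 850 CPM in WT libraries 7 and 11. The 3xTg-AD libraries all lay below the WT libraries, and WT library 3, outside the fit, had 706 CPM. The log2FC was -2.12 (SE 0.26, adjusted p = 0.0409). The other excitatory nuclei of the same libraries gave -2.13 (SE 0.12, adjusted p = 0.00053), and over both ages the genotype effect in the members differed from that in those nuclei by 0.01 (SE 0.19, adjusted p = 1). At 12 months the genotypes overlapped, with 430, 548 and 944 CPM in 3xTg-AD and 752 and 241 CPM in WT libraries, and the log2FC was 0.30 (SE 0.47, adjusted p = 0.923). The interaction of genotype and age for this gene was 2.40 (SE 0.59, adjusted p = 0.181). Leaving out 3xTg-AD library 1, 5 or 9 or WT library 11 ended the 6-month call, with adjusted p of 0.157, 0.0599, 0.0958 and 0.0948, while the log2FC stayed between -2.22 and -1.93. Without WT library 11 or 7 a single WT library was left. The call also ended with equal numbers of nuclei (-2.27, adjusted p = 0.288), with a cortical factor and no Tcf7l2 (-2.36, adjusted p = 0.0914) and in 1 fit of all libraries (-2.11, adjusted p = 0.243).

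Gm17167 (ENSMUSG00000091542), a processed transcript at chr4:42206998-42235313 on the plus strand of mm10, had the next smallest p at 6 months. It had no UMI in the members of any of the 6 3xTg-AD libraries. In WT libraries it had 60.4 and 50.3 CPM at 6 months (libraries 7 and 11) and 12.6 and 82.9 CPM at 12 months (libraries 4 and 8). From a floor of 3 counts over the group, the 3xTg-AD level was at least 20.3-fold lower at 6 months, at least 18.6-fold lower at 12 months and at least 43.3-fold lower over both ages. The 12-month bound rests on WT library 8, which held 11 of the 14 WT UMIs: without it the 3 UMIs of library 4 are at the floor and no fold is given, without WT library 4 the bound is 40.8-fold, and without 3xTg-AD library 2 it is 10.0-fold. Without 3xTg-AD library 1 the 6-month bound is 8.32-fold. The adjusted p was 0.0585 at 6 months and 0.267 over both ages, and the fitted log2FC depends on the prior count and is not given. The transcript was called with the libraries of under 10 members kept (adjusted p = 0.0391 at 6 months and 0.0408 over both ages), without the count filter at both, and over both ages with DESeq2 (adjusted p = 4.44e-08) and without WT library 4 (adjusted p = 0.0261). In the other excitatory nuclei, with more UMIs behind each value, the transcript had 10 UMIs in 3xTg-AD against 935 in WT libraries (adjusted p = 9.12e-06 over both ages).

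The other genes with the smallest p at 6 months passed the threshold under some alternatives only. Rnf152, a lysosomal ubiquitin ligase, had 150, 266 and 254 CPM in 3xTg-AD libraries 1, 5 and 9 and 52.1 and 37.7 CPM in WT libraries 7 and 11. The genotypes did not overlap, and the log2FC was 2.24 (SE 0.33, adjusted p = 0.0736), next to 2.01 (SE 0.22, adjusted p = 0.0125) in the other excitatory nuclei. It was called in the members without doublets (log2FC 2.49, adjusted p = 0.0198), with Hs3st4 of at least 5 (2.78, adjusted p = 0.0265), without WT library 7 (2.49, adjusted p = 0.047, with WT library 11 as the only control), with DESeq2 (adjusted p = 1.85e-05) and without the count filter. Prss12, the secreted protease neurotrypsin, had 37.0, 16.6 and 54.5 CPM against 156 and 147 CPM (log2FC -1.92, SE 0.32, adjusted p = 0.155). Brinp3 had log2FC 1.36 (SE 0.25, adjusted p = 0.303). Both were called with DESeq2 and without the count filter, and Prss12 also in members with both Syt6 and Tle4 (adjusted p = 0.04), a fit of 3xTg-AD library 1 alone against WT libraries 7 and 11. In all, 501 genes had an unadjusted p under 0.05, and DESeq2 called 14.

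At 12 months none of 5407 genes was called (0%), with 428 at an unadjusted p under 0.05 and 37 calls by DESeq2. Among the 5 genes with the smallest p were Spag16, Kcnh8, Sorcs3 and Bmpr1b, with adjusted p from 0.103 to 0.143. All 4 were called with DESeq2, without the count filter and without 3xTg-AD library 10 (adjusted p from 0.0124 to 0.0461), and the first 3 also without doublets (adjusted p = 0.0403). With Hs3st4 of at least 5 all 4 were called (0.0181 to 0.0253), and without WT library 8 the first 3 were (adjusted p = 0.0355), but both of these fits hold WT library 4 as the only control, whose spread is assumed to be that of the 3xTg-AD libraries. Spag16, an axonemal protein, had 211, 288 and 147 CPM in 3xTg-AD libraries 2, 6 and 10 against 12.6 and 0 CPM in WT libraries 4 and 8. Its fitted log2FC of 4.70 (SE 0.63, adjusted p = 0.103) rests on 3 UMIs in the WT libraries and is no bound. It was 4.04 without WT library 8 and 9.45 without WT library 4.

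Sorcs3, a sortilin-family receptor, had log2FC 1.78 (SE 0.30), the potassium channel Kcnh8 -3.08 (SE 0.51) and the bone morphogenetic protein receptor Bmpr1b 4.52 (SE 0.76). Bmpr1b had 147, 177 and 64.4 CPM in 3xTg-AD libraries 2, 6 and 10 against 4.20 and 7.53 CPM in WT libraries 4 and 8, which is 1 UMI in each WT library, so this fold is no bound. Spag16 and Bmpr1b were among the 10 leading genes of cluster 3 and Kcnh8 led cluster 4. Clusters 3 and 5 held 14.3% to 44.7% of the members of the 12-month 3xTg-AD libraries and at most 3.45% of those of the WT libraries. Cluster 4 held 0 of 47, 0 of 34 and 5 of 35 members in 3xTg-AD libraries 2, 6 and 10 and 5 of 29 and 1 of 11 in WT libraries 4 and 8, which overlap. Their part in the 12-month differences was not tested. In the other excitatory nuclei the log2FC of Spag16 at 12 months was 0.33 (SE 0.64, adjusted p = 0.896) and that of Bmpr1b was 2.42 (SE 0.45, adjusted p = 0.289).

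The difference between the genotype effects at 12 and 6 months, the interaction, was called for none of 7184 genes (0%), with 664 at an unadjusted p under 0.05 and 57 called by DESeq2. Its smallest adjusted p was 0.077, which Prss12 (3.40, SE 0.52), Sorcs3 (2.38, SE 0.41) and Bmpr1b (6.81, SE 1.18, with 1 UMI in each 12-month WT library of the fit) had, followed by Csgalnact1 (2.93, SE 0.53, adjusted p = 0.0817), an enzyme of chondroitin sulfate synthesis. These 4 were called with DESeq2, without the count filter and without 3xTg-AD library 9 (adjusted p from 0.0157 to 0.0395) or 10 (0.0221 to 0.0398). For Prss12 the levels were 156 and 147 CPM in 6-month WT libraries 7 and 11 and 37.0, 16.6 and 54.5 CPM in 6-month 3xTg-AD libraries 1, 5 and 9. At 12 months they were 25.2 and 45.2 CPM in WT libraries 4 and 8 and 103, 105 and 67.4 CPM in 3xTg-AD libraries 2, 6 and 10, with a log2FC of 1.49 (SE 0.41, adjusted p = 0.378). The fitted groups did not overlap at either age, and their order was opposite. Prss12 was picked by its small p for this same interaction, so this pattern follows in part from that choice. Clusters 3 and 5 held 34.2% and 59.2% of the members of 6-month WT libraries 7 and 11, against 0%, 0% and 28% in 3xTg-AD libraries 1, 5 and 9. At 12 months they held 44.7%, 44.1% and 14.3% in 3xTg-AD libraries 2, 6 and 10, against 3.45% and 0% in WT libraries 4 and 8. The 14.3% of 12-month 3xTg-AD library 10 was below the 28% of 6-month 3xTg-AD library 9. Prss12 was not among the leading genes of either cluster, and the part of the cluster mix in the interaction was not tested. In the other excitatory nuclei the interaction was 2.07 (SE 0.39) for Prss12 and 4.76 (SE 0.91) for Bmpr1b. It was 0.82 (SE 0.32) there for Sorcs3 and 0.32 (SE 0.26) for Csgalnact1, and none of these was called.

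**Figure D5:**
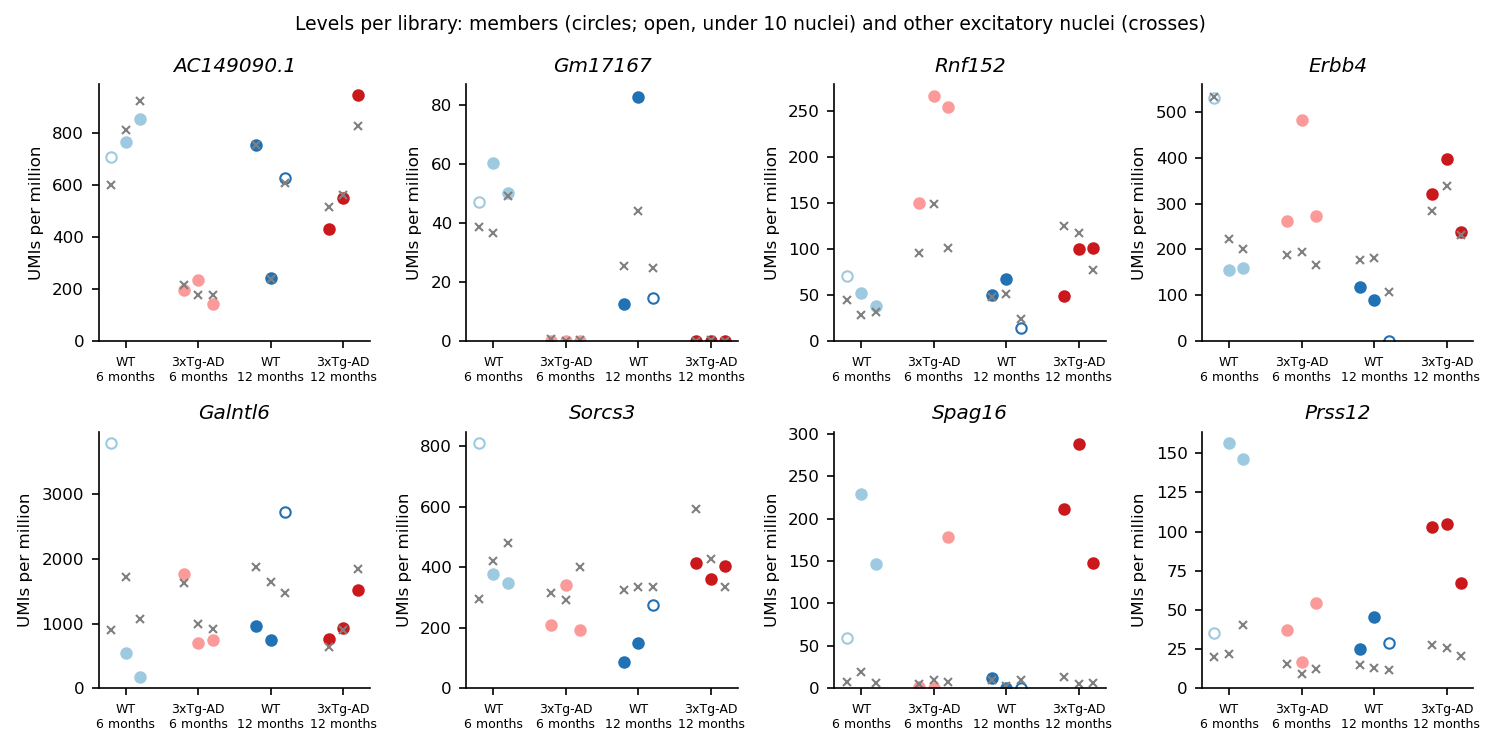
Levels of 8 genes in CPM (vertical axes, each from 0) in the members of each library (circles, open where a library had under 10 members) and in the other excitatory nuclei of the same library (crosses), by group. AC149090.1 is at 142 to 233 in the 6-month 3xTg-AD members against 765 and 850 in WT, Gm17167 is at 0 in the members of every 3xTg-AD library, and the fitted libraries of Prss12 change order between the ages.

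Over both ages, with age as a covariate, none of 6517 genes was called (0%), while 307 had an unadjusted p under 0.05 and DESeq2 called 5. Erbb4, the neuregulin receptor, is best known from interneurons. It was at 262, 482 and 272 CPM in 6-month and 322, 397 and 239 CPM in 12-month 3xTg-AD libraries. In WT libraries it was at 154 and 159 CPM at 6 months and 118 and 90.4 CPM at 12 months. The fitted groups did not overlap, although 6-month WT library 3 had 530 CPM and 12-month WT library 12 had none. Its log2FC was 1.29 (SE 0.24, adjusted p = 0.311), and in the members with Tbr1, Fezf2 or a further cortical marker and no Tcf7l2 it was -0.05. The adaptor subunit Ap3m2 had log2FC -1.41 (SE 0.30, adjusted p = 0.431). Zfp521 (2.08, SE 0.41) and Gm12239 (1.99, SE 0.43) overlapped between the genotypes and were among the leading genes of cluster 9.

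Neither the mouse counterparts of the transgenes nor Thy1 were called in the members. Over both ages the log2FC was 0.19 (SE 0.18) for App, -0.07 (SE 0.17) for Mapt and 0.18 (SE 0.27) for Thy1, each with an adjusted p of 1.00. App lay between 471 and 657 CPM in the fitted 3xTg-AD libraries and between 379 and 633 CPM in the fitted WT libraries, and it was at 706 and 480 CPM in WT libraries 3 and 12, outside the fit. These are reads assigned to the mouse genes, and the human transgenes were not counted as genes of their own. In the other excitatory nuclei Thy1 was higher in 3xTg-AD mice (log2FC 0.78, SE 0.12, adjusted p = 0.0216), and the difference between the members and those nuclei for Thy1 was -0.56 (SE 0.28, adjusted p = 1).

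Age, 12 over 6 months with genotype as a covariate, gave no called gene among 6517 (0%), with 189 at an unadjusted p under 0.05 and none by DESeq2. The smallest p belonged to Serinc2, at 7.34 to 15.1 CPM in the 12-month and 27.2 to 48.2 CPM in the 6-month libraries (log2FC -1.75, SE 0.32, adjusted p = 0.555). Crem, a cAMP-responsive transcriptional modulator, had log2FC -1.72 (SE 0.38), and the phosphoinositide phosphatase Sacm1l -0.77 (SE 0.19). The 5 libraries of each age did not overlap for these 3 genes. They were picked by the smallest p of this same comparison, so their separation follows in part from that choice. The share of all 6517 genes without overlap is not given. Gm12239 (-1.66, SE 0.38) and Zfp521 (-1.55, SE 0.36) overlapped between the ages.

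Whether genotype acted otherwise in the members than in the other excitatory nuclei was asked in 1 fit with each library as a term. Of 13855 genes, 1 was called, 0.00722% of them, with 531 at an unadjusted p under 0.05 and 5 calls by DESeq2. The called gene was Galntl6, which encodes a GalNAc-transferase-like protein. Members of the 3xTg-AD libraries had 1767, 698, 747, 768, 928 and 1517 CPM (libraries 1, 5, 9, 2, 6 and 10). Members of the WT libraries had 540, 176, 957 and 746 CPM (libraries 7, 11, 4 and 8), and WT libraries 3 and 12, which were outside the fit, had 3779 and 2722 CPM. The genotypes overlapped in the members, and the difference of the effects was 1.47 (SE 0.24, adjusted p = 0.0347). Within the members alone the genotype effect over both ages was 0.93 (SE 0.40) and was not called. The 1.47 is therefore not the size of a change in the members, and the effect in the other excitatory nuclei is not given. Leaving out WT library 8 or 11 or 3xTg-AD library 1, 2, 6 or 9 ended the call. On leaving out a library the adjusted p reached up to 0.198, while the difference stayed between 1.25 and 1.60. With libraries 3 and 12 kept the difference was 0.57 with an adjusted p of 1, with a cortical factor and no Tcf7l2 it was 1.36 (adjusted p = 0.58) and with Hs3st4 of at least 5 it was 1.61 (adjusted p = 0.0508). Erbb4 (1.08, SE 0.20, adjusted p = 0.151), Zfp521 (1.75, SE 0.35), Trpc7 (3.67, SE 0.76) and Gm10754 (2.04, SE 0.42) followed, the last 3 with an adjusted p of 0.168.

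Groups of genes chosen for neuronal function were counted in the same fits, and none of their genes was called in any of the 6 comparisons. In the heparan sulfate list, 4 of 15 genes tested had an unadjusted p under 0.05 at 6 months and 6 of 15 at 12 months. Over all genes tested this p was reached by 6.93% (501 of 7229) at 6 months and 7.92% (428 of 5407) at 12 months. The lists were chosen with earlier results known, and their counts carry no test. At 12 months these were Hs3st2 (log2FC 1.25), Hs3st5 (1.86), Hs6st2 (0.59), Hs2st1 (0.73), Ndst4 (4.18) and Sulf1 (1.996), and the list's median of 0.59 stood next to 0.00 over all genes tested. At 6 months Sulf1 (-1.86) and Hs3st2 (-1.62) had the opposite sign, Ext1 was at -0.85 and Hs6st3 at 1.04. Sulf1 was also among the leading genes of cluster 3.

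Among 20 potassium channel genes, Kcnc2 (1.55), Kcnh5 (1.46), Kcna2 (1.18), Kcnd2 (0.65) and Kcnh1 (-0.73) had an unadjusted p under 0.05 at 6 months, with a list median of 0.55. At 12 months 3 of 18 tested did, and the median was -0.31. Of 27 axon guidance genes tested at 6 months 5 were at an unadjusted p under 0.05, and of 26 at 12 months 8 were, among them the ephrin receptor Ephb1 (-2.02) and the ephrin Efnb2 (1.76). Of 15 and 10 neuromodulator receptor genes tested at the 2 ages, 3 and 5 were, with the serotonin receptor Htr2c at 1.19 and 1.65. Synaptic adhesion genes gave 7 of 21 and 4 of 19, AMPA and kainate receptor genes 4 of 9 and 0 of 9, and GABA-A subunits 2 of 10 at each age. Over all genes tested such a p was reached by 6.93% at 6 months and 7.92% at 12 months. Of the genes handling APP, 0 of 9 and 1 of 7 (Adam17, 1.49) had such a p, and of the tau list 1 of 13 (Mark1, -0.70) and 0 of 11. Immediate early genes, which can follow handling, gave 0 of 6 and 0 of 2, and heat shock genes 0 of 6 and 0 of 3.

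The members' fold changes had larger errors than those of the other excitatory nuclei. The median SE of a log2FC was 0.37 at 6 months and 0.38 at 12 months in the members, against 0.19 and 0.24 in the other excitatory nuclei of the same libraries. In those nuclei the same comparisons tested more genes and called 40 of 14383 at 6 months and 5 of 15137 at 12 months. They called 43 of 15068 over both ages, 1 of 15068 with age and none of 15468 for the interaction.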

How the data were processed

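Single-nucleus RNA sequencing covered 12 libraries of the left hippocampus, each from a different female mouse. The authors deposited raw UMI counts per gene and nucleus, made with Cell Ranger 6.1.1 on mm10 (per the file headers and the submitters' processing notes). The study's methods name SoupX for the removal of free RNA after alignment, and whether that step reached the deposited files, whose headers name Cell Ranger alone, is not given in the sources used here. Nuclei with 500 to 10000 genes were kept. The members and the gene lists were chosen with earlier results of these data known. Marker shares were also computed after thinning each nucleus to 2000 UMIs. Doublets were called in each library with scanpy 1.11.5 (expected 8%) and left out only as an alternative.

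Members were clustered on 1500 variable genes, 15 components and 15 neighbours (Leiden resolution 0.5, chosen after seeing the data; 0.3 gave 5 clusters and 0.8 gave 11). Counts were summed over the members of each library with at least 10 members and tested with edgeR 4.0.16 (TMM, filterByExpr, quasi-likelihood F test), a procedure tested on simulated data, where false calls at 6 months exceeded the nominal share when many genes were strongly changed. Genes were called below an adjusted p of 0.05 and beyond 0.2 log2 units in either direction. Shares were compared by two-sided exact permutation, with adjustment over 10 tests, and 3 relations by permutation with 100000 resamples. Named genes were the rule's genes, the fixed corticothalamic, layer 6b and transgene-related lists, the 20 genes highest over other excitatory nuclei among those in at least 25% of members, the called genes, and the 5 with the smallest p where fewer than 5 were called. Gene positions are those of GENCODE vM21. Alternatives were another normalization, no count filter, DESeq2 1.42.0, stricter rules, doublets left out, quality filters, equal numbers of nuclei, 1 fit of all libraries and leaving out each library. Keeping libraries with under 10 members, restricting to members with Tbr1, Fezf2 or a further cortical marker (here a cortical factor) and no Tcf7l2, and relating shares of excitatory nuclei or without doublets were added after seeing the data. Some genes and alleles are not reported here.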

Additional observations from a re-analysis of the deposited data

Results flagged for a closer look

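Galntl6 was marked because the genotype effect differed between 2 populations of the same libraries by a test of the difference itself. The effect of genotype in the members minus that in the other excitatory nuclei was 1.47 on the log2 scale (SE 0.24, adjusted p = 0.0347 by edgeR). In the members the 6 3xTg-AD libraries had 698 to 1767 CPM and the 4 fitted WT libraries 176 to 957 CPM, which overlap, and the genotype effect within the members was 0.93 (SE 0.40, adjusted p = 1.00). The 2 WT libraries with under 10 members had 3779 and 2722 CPM, and with them the difference was 0.57 (adjusted p = 1). The call also ended with Hs3st4 of at least 5 (adjusted p = 0.0508). It ended without WT library 8 or 11 or 3xTg-AD library 1, 2, 6 or 9 too, with adjusted p up to 0.198. With a cortical factor and no Tcf7l2 the difference was 1.36 (adjusted p = 0.58).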

How the results depend on the processing

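Few calls were stable. The 6-month count of 1 called gene became 49 without the count filter, 14 with DESeq2, 82 in members with both Syt6 and Tle4 (3xTg-AD library 1 alone against WT libraries 7 and 11), 2 with Hs3st4 of at least 5, without doublets or with the small libraries kept, and 0 with equal numbers of nuclei, in members with a cortical factor or in 1 fit of all libraries. Leaving out each library gave 0 to 16, the highest without WT library 7. At 12 months, where the count was 0, it was 125 without the filter, 37 with DESeq2, 42 with Hs3st4 of at least 5 (WT library 4 alone as control), 4 without doublets, 1 with the small libraries kept and 0 to 38 on leaving out a library (20 without WT library 8 and 38 without 3xTg-AD library 10). Over both ages the 0 became 54 without the filter, 5 with DESeq2, 1 with the small libraries kept and 0 to 1 on leaving out a library. For age it became 23 without the filter and stayed at 0 without any 1 library. For the interaction it became 174 without the filter, 57 with DESeq2, 5 without doublets and 0 to 35 on leaving out a library (35 without 3xTg-AD library 9, 21 without 10, 3 without 5 and 2 without WT library 4). For members against other excitatory nuclei the 1 call became 31 without the filter, 5 with DESeq2, 17 with equal numbers of nuclei, 4 with a cortical factor, 3 without doublets, 0 with Hs3st4 of at least 5 or with the small libraries kept, and 0 to 4 on leaving out a library. At either age, leaving out 1 of the 2 WT libraries left a single one, as did a cortical factor at 12 months. A lone library is assumed to vary like the others. Galntl6 lost its call without WT library 8 or 11 or 3xTg-AD library 1, 2, 6 or 9, with adjusted p from 0.0588 to 0.198, with Hs3st4 of at least 5 (0.0508), with the small libraries kept (1) and with a cortical factor (0.58), where the 4 calls were 4921539H07Rik, Gm32647, Nkain3 and Tafa1 (named after their values were seen). The cause was not tested. The members with both Syt6 and Tle4 could be fitted at 6 months only, and DESeq2 gave no adjusted p for Gm17167 at 6 months.

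Differences in share below 0.1 points of all nuclei had no stable sign. The genotype difference at 6 months (0.0237 points of all nuclei) became -0.053 with both Syt6 and Tle4, -0.0563 with a cortical factor and -0.0886 to 0.0959 on leaving out a library. Over both ages 0.077 points became -0.0213 with both genes and 0.0208 to 0.113 on leaving out a library. As a share of excitatory nuclei 0.707 points over both ages became -0.866 with both genes, -0.105 after thinning, -0.452 with a cortical factor and -0.118 to 1.90 on leaving out a library. The 6-month difference of -1.21 ran from -2.86 to 1.19, and the age difference in all nuclei from -0.0772 to 0.0178. The 12-month differences of 0.130 points of all nuclei and 2.62 points of excitatory nuclei kept their sign and shrank to 0.0103 and 0.204 with both genes, to 0.0088 and 0.532 after thinning and to 0.0693 and 1.32 with a cortical factor. On leaving out a library they ran from 0.0918 to 0.159 and from 2.15 to 3.24 points. Counting with both genes, after thinning or with a cortical factor held fewer nuclei, which by itself lowers a difference in points. With both genes there were 7, 6 and 4 in 3xTg-AD libraries 2, 6 and 10 and 9, 2 and 1 in WT libraries 4, 8 and 12. After thinning there were 1, 2 and 12 against 6, 2 and 1, and with a cortical factor 31, 16 and 15 against 18, 3 and 6.

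Of named genes, Erbb4 turned to -0.046 over both ages and to -0.14 against other excitatory nuclei with a cortical factor, Zfp521 turned to -2.11 there, Mapt to 0.14 with a cortical factor and 0.0257 with the small libraries kept, and Thy1 (over both ages) ran from -0.0111 to 0.362 on leaving out a library, with the lowest without 3xTg-AD library 1. Thinning to 2000 UMIs lowered detection in members to 65.2% for Zfpm2, 48.3% for Garnl3, 19.7% for Sulf1, 12.1% for Crym, 8.43% for Fezf2, 5.90% for Tbr1, 4.49% for Cpa6, 1.97% for Nxph3 and 1.40% for Ntsr1, and of the rule's genes to 90.2% for Hs3st4, 51.1% for Tle4, 48.9% for Foxp2 and 9.55% for Syt6. No paired analysis was possible because the labels number the libraries from 1 to 12 and no 2 groups share a number.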
